A study of Homo sapiens with 6 samples.

Results

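The genes that encode proteasome subunits, their activators and their assembly chaperones were followed in HaCaT cells, an immortalised human keratinocyte line. Members were all gene symbols of the form PSMA to PSMG followed by a number, and 46 of the 21961 symbols in the deposited count table met that rule. The design text of the series describes UVB-irradiated cells and UVB-irradiated cells that also received nanovesicles of beet (Beta vulgaris), with 3 libraries each. The labels agree only in part with that text: the libraries titled mod carry the treatment UV-induced, whereas those titled Nvs are labelled as control with no word on vesicles or radiation. The groups are therefore called mod (mod1 to mod3) and Nvs (Nvs1 to Nvs3) here, and fold changes give Nvs relative to mod. HaCaT is a single cell line, the labels give no radiation dose, vesicle dose or time; whether the Nvs cells were irradiated is not settled by the labels. The labels do not say that replicates came from separate cultures, so the p-values reflect only library-to-library spread, and that may be technical.

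The proteasome is the protease complex that degrades proteins tagged with ubiquitin. Its barrel-shaped core has outer rings of alpha subunits, which gate the channel, and inner rings of beta subunits, some of which cut peptide bonds. A regulatory particle caps the barrel: its base holds a ring of ATPases that unfold substrates, and its lid holds the subunits that remove ubiquitin. Interferon-inducible beta subunits can replace the constitutive catalytic ones, which changes the peptides made for MHC class I presentation, and dedicated chaperones build the complex. In keratinocytes, as in other cells, most of these genes are used all the time.

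All members were accounted for. The count filter was passed by 42 of them, in 3 of 3 libraries of each group, so none entered the test through the group where it was higher. The 4 that did not pass were listed at or near 0 reads throughout. PSMB3, a structural beta subunit, had 0 reads in 5 libraries and 2 in Nvs3. PSMC4, a base ATPase, had 1 read in Nvs1 and 0 elsewhere. The inducible catalytic subunits PSMB8 (1 read in mod2 and 1 in Nvs1) and PSMB9 (2 reads in each of mod1 and mod3) were likewise almost unlisted. PSMB3 and PSMC4 are parts of every proteasome, and these rows are read as listed at 0, not as absence of the transcript. TAP1, which lies beside PSMB9 in the MHC region and encodes a peptide transporter, also stood at 0 to 4 reads in every library, and TAP2 at 3 to 7 reads with 68 in Nvs3. Why these rows were near 0 was not tested.

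The mod libraries held 45637046 to 51369628 counts each, and the Nvs libraries 41120058 to 44080808. Of these, 29.8 to 31.4% in mod and 51.8 to 53.3% in Nvs came from the mitochondrial genome, so the reads left for nuclear genes differed as well. Levels below are CPM values (reads of a gene as a proportion of the library, on a fixed base) scaled by edgeR's TMM method, under which a typical gene shows almost no change. In bulk RNA, fewer cells of a type and less RNA per cell cannot be told apart. All 10 keratinocyte markers examined reached 1 FPKM in at least 1 library, with a summed level of 9775 to 10675 FPKM in mod and 8623 to 9364 in Nvs, on FPKM scaled by library total. Under TMM 3 of the 10 were called higher and 4 lower (22.8% and 20.5% of all genes tested). Of the 6 fibroblast markers with a row 5 were under 1 FPKM in every library, as were 5 of 5 melanocyte markers and 7 of 7 markers of leukocytes and endothelium, and no such list summed to more than 1.76 FPKM in any library.

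Relative to the typical gene, more proteasome genes were higher in Nvs than lower. Of the 42 tested members 20 were called higher and 3 lower by edgeR's quasi-likelihood test at an adjusted p under 0.05, and 19 were not called. Among all 14617 genes tested, 43.3% were called, 22.8% higher and 20.5% lower. The median log2 fold change of the tested members was 0.23, against -0.01 for all genes, and individual values ran from -0.47 to 0.86. The groups did not overlap for 26 of the 42, against 53.6% of all genes. The changes were of modest size. The largest called rise was 1.81-fold (PSMG4), and the largest called fall took PSMD12 to 0.811 of its level in mod.

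The sign of these changes rests on the scaling. When libraries were scaled by their total counts, the median of all genes moved to -0.77 and that of the members to -0.53. On that scale 0 members were called higher and 36 lower by edgeR's quasi-likelihood test (4.04% and 68.0% of all genes), 41 had a value below 0 and PSMG4 alone lay above it. Member reads made up 0.601%, 0.610% and 0.591% of the reads outside the mitochondrial genome in mod1 to mod3, and 0.614%, 0.577% and 0.624% in Nvs1 to Nvs3. These shares overlapped between the groups. As a share of all reads, the members went from 0.417% ± 0.0113 in mod to 0.287% ± 0.0159 in Nvs (SD, n = 3), with no overlap. Every rise and fall below is thus relative to the typical gene.

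**Figure D1:**
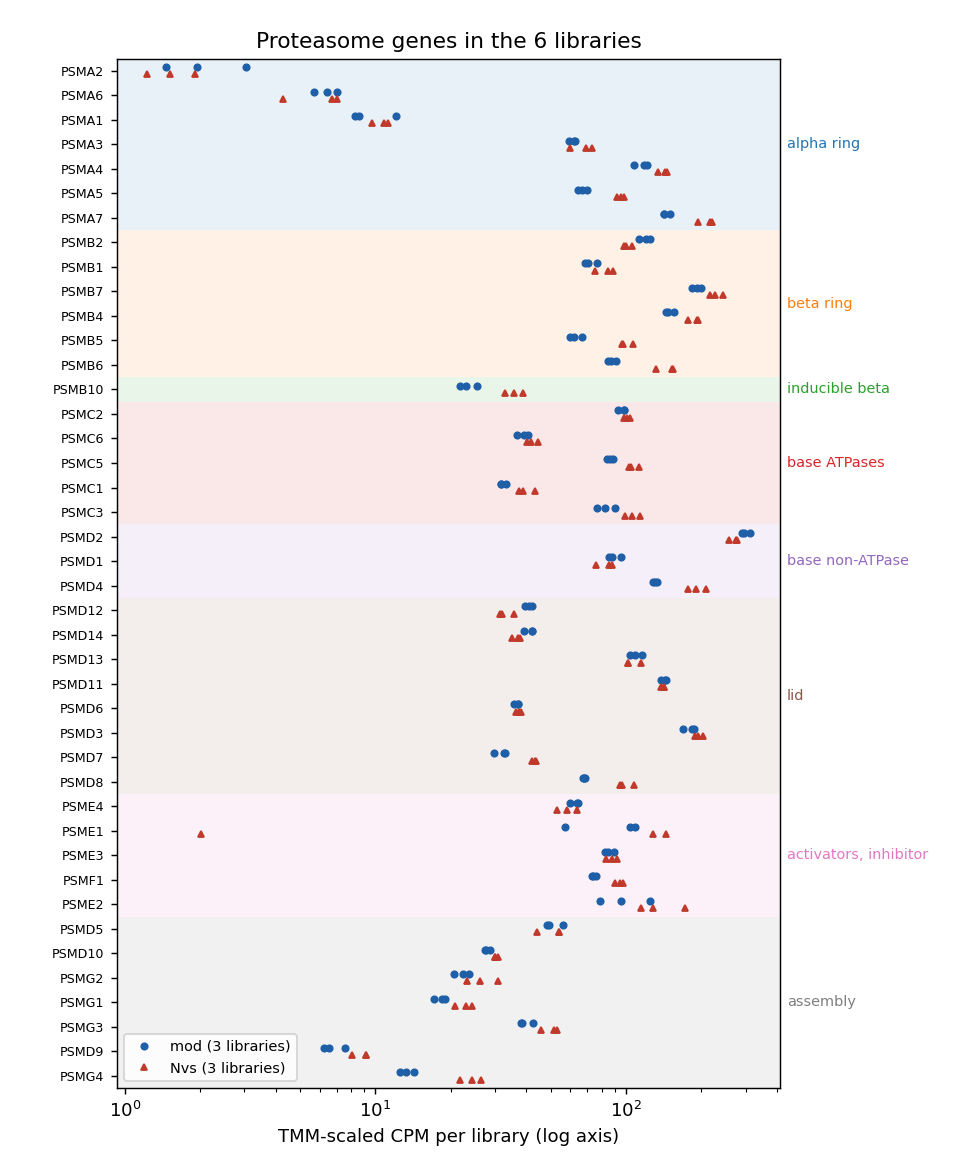
Each point is the TMM-scaled CPM of a tested proteasome gene in a library, on a log axis, with 3 mod libraries (circles) and 3 Nvs libraries (triangles), grouped by role. Most genes vary little within a group. Exceptions include PSME1, whose Nvs2 library stands at 2.02 CPM, PSME2 (78.5 to 124 CPM in mod) and PSMA2 (1.46 to 3.05 CPM in mod).

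In the alpha ring, 3 of 7 genes rose (PSMA7, PSMA5 and PSMA4), 0 fell, and the median log2 fold change was 0.14. Beside the counts of this role and those below stand 22.8% of all genes tested called higher and 20.5% called lower. PSMA7, on chromosome 20 from 62136735 to 62143440 on the minus strand, had 149, 142 and 142 CPM in mod1 to mod3 and 216, 194 and 220 CPM in Nvs1 to Nvs3. All Nvs libraries lay above all mod libraries, and the log2 fold change was 0.54 ± 0.06 (SE, edgeR adjusted p = 6.03e-06). PSMA5 stood at 64.5, 69.6 and 67.0 CPM in mod and 98.6, 91.8 and 95.7 CPM in Nvs, again without overlap (0.51 ± 0.06, edgeR adjusted p = 9.06e-06). PSMA4, whose counterpart in yeast has the tail that closes the gate of the channel, had 118, 121 and 108 CPM against 146, 134 and 142 CPM (0.28 ± 0.06, edgeR adjusted p = 0.00156), and its lowest Nvs library was also above its highest mod library. PSMA3 was not called at 0.14 ± 0.07 (edgeR adjusted p = 0.139).

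The other alpha genes were listed far lower than their partners, although each alpha ring holds all 7 proteins in equal numbers. PSMA1 had 8.31 to 12.1 CPM in mod and 9.68 to 11.2 CPM in Nvs, PSMA6 a log2 fold change of -0.08 ± 0.20, and PSMA2 1.46 to 3.05 CPM in mod and 1.23 to 1.91 CPM in Nvs, all with overlapping groups and no call. These 3 genes share their strand and part of their span with another coding gene in GENCODE release 29, as do PSMB10 and PSMD9. The mean level of the 5 had a median of 0.988 FPKM (range 0.237 to 17.7), against 17.3 FPKM for the other 41 members. How reads that fit 2 overlapping genes were counted is not given in the sources used here, so the levels of these 5 are uncertain, and whether the overlap set them was not tested.

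In the constitutive beta rings 5 of the 6 tested genes rose and 1 fell, with a median log2 fold change of 0.30. Among the catalytic subunits, PSMB6, which cuts after acidic residues, had 90.9, 87.4 and 85.1 CPM in mod and 154, 132 and 153 CPM in Nvs. The groups were far apart, and the mean went from 87.8 ± 2.93 to 146 ± 12.2 CPM (SD, n = 3). Its log2 fold change of 0.73 ± 0.06 (edgeR adjusted p = 8.98e-07) had the smallest adjusted p of the 42 genes, and by library total it was -0.02. PSMB6 lies on chromosome 17 from 4796144 to 4798503 on the plus strand. PSMB5, the chymotrypsin-like subunit and main target of proteasome inhibitor drugs, had 66.9, 62.0 and 59.8 CPM in mod and 96.6, 97.4 and 107 CPM in Nvs. No libraries of the groups overlapped, and the log2 fold change was 0.67 ± 0.06 (edgeR adjusted p = 1.88e-06). PSMB7, the trypsin-like subunit, was the most abundant member per length in mod, at 131 to 146 FPKM. It changed less than the other catalytic subunits, from 191, 199 and 183 to 217, 226 and 244 CPM (0.26 ± 0.06, edgeR adjusted p = 0.00226), without overlap.

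Of the beta subunits without catalytic activity, PSMB4 had 147, 156 and 144 CPM in mod and 192, 176 and 194 CPM in Nvs, without overlap, and rose by 0.33 ± 0.06 on the log2 scale (edgeR adjusted p = 0.000314). PSMB1 was called at 0.21 ± 0.07 (edgeR adjusted p = 0.0292), but its groups overlapped, at 70.7, 76.8 and 68.5 CPM in mod and 88.8, 75.5 and 84.9 CPM in Nvs. The call of PSMB1 was lost without mod1 (adjusted p = 0.106), mod3 (0.161), Nvs1 (0.123) or Nvs3 (0.0722) in the edgeR test. PSMB2 went the other way from the rest of the ring. It had 124, 120 and 112 CPM in mod and 97.9, 100 and 105 CPM in Nvs, so that every Nvs library lay below every mod library (-0.23 ± 0.06, edgeR adjusted p = 0.00453). PSMB2 is on chromosome 1 from 35599544 to 35641844, on the minus strand.

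PSMB10 was the single inducible beta subunit with enough reads to test, and it takes the place of PSMB7 in the immunoproteasome. Its libraries stood at 25.3, 21.8 and 23.0 CPM in mod and 35.8, 32.8 and 38.7 CPM in Nvs. The groups did not overlap, and the log2 fold change was 0.61 ± 0.09 (edgeR adjusted p = 0.000111). Within a library the ratio of PSMB10 to PSMB7 does not depend on scaling. On log2 FPKM it was -2.78, -3.05 and -2.85 in mod1 to mod3 and -2.46, -2.65 and -2.52 in Nvs1 to Nvs3, so every Nvs ratio was above every mod ratio. The difference was 0.35, or 1.28-fold (exact permutation test over the 6 libraries, two-sided, p = 0.1, the smallest that 3 against 3 allow). It ranged from 0.27 to 0.41 when a library was left out. This ratio is not freed from the trend with gene length described below: with that trend removed PSMB10 stood at 0.15 and PSMB7 at 0.41, a difference of -0.26 in the other direction. The ratios of PSMB8 to PSMB5 and of PSMB9 to PSMB6 could not be computed on FPKM, since most values of the inducible genes were 0. From counts with 1 read added the differences were 0.27 and -0.85 (exact permutation test, two-sided, p = 0.6 and 0.4), and they rest on 0 to 2 reads of PSMB8 or PSMB9 in a library. PSMB10 lies within 2.6 kb on chromosome 16, from 67934502 to 67937087 on the minus strand, and overlaps AC040162.1 on the same strand.

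**Figure D2:**
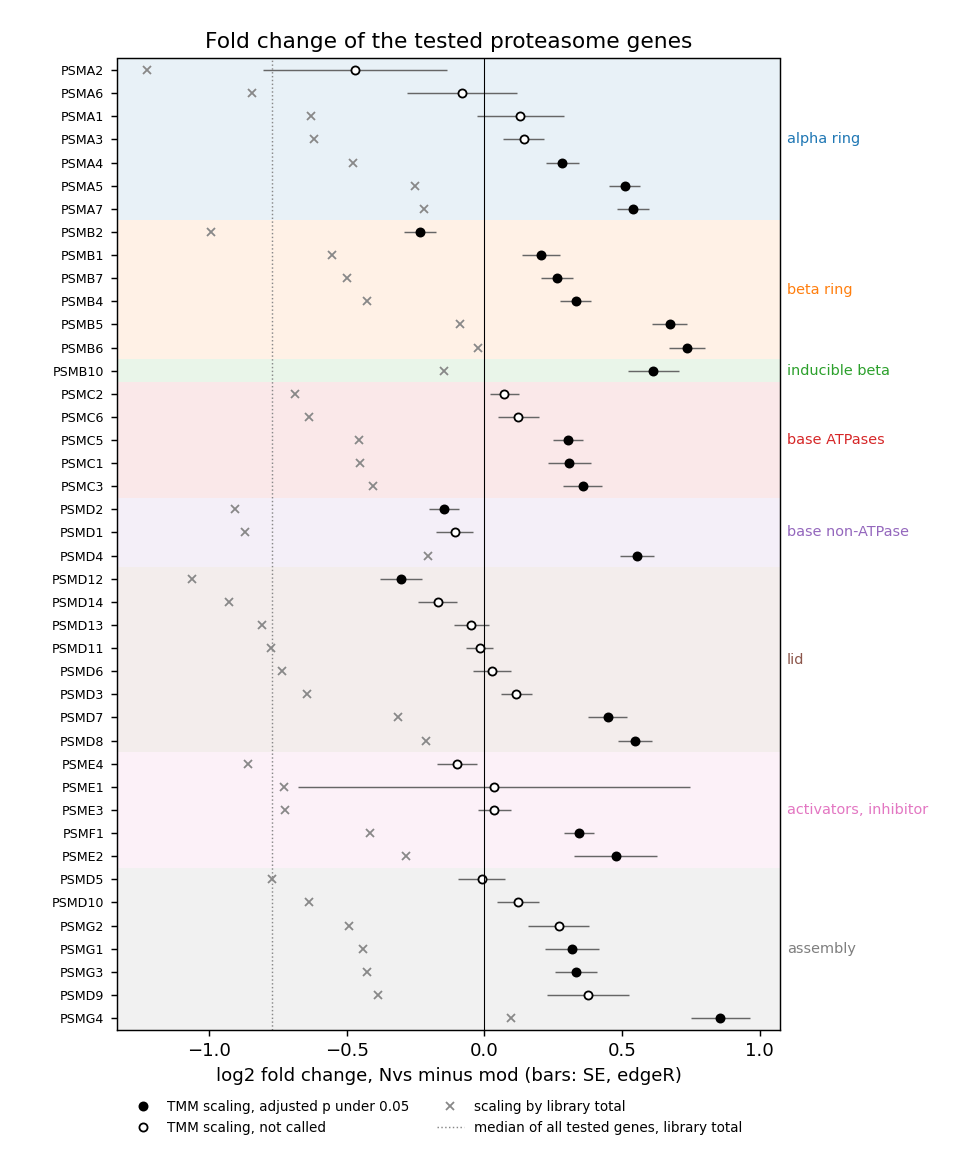
Points are log2 fold changes (Nvs minus mod) of the 42 tested genes with their SE from edgeR, filled where the adjusted p was under 0.05, and crosses give the same genes scaled by library total. Of the filled points 20 lie to the right of 0 and 3 to the left, whereas all crosses except that of PSMG4 are below 0, with the median of all genes at -0.77.

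Of the base ATPases 3 of 5 tested genes rose and 0 fell. PSMC3, the gene of RPT5, rose by 0.36 ± 0.07 on the log2 scale (edgeR adjusted p = 0.000988), from 90.3, 76.7 and 82.1 CPM in mod to 106, 99.5 and 113 CPM in Nvs. PSMC5, the gene of RPT6, with 84.2, 88.8 and 86.6 CPM in mod and 105, 103 and 112 CPM in Nvs, rose by 0.30 ± 0.06 (edgeR adjusted p = 0.000592). For both genes the groups did not overlap. PSMC1, the gene of RPT2, rose by 0.31 ± 0.08 (edgeR adjusted p = 0.00545), while PSMC6 at 0.12 and PSMC2 at 0.07 were not called (edgeR adjusted p = 0.194 and 0.298).

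The non-ATPase subunits of the base moved in different directions. PSMD4, which encodes the ubiquitin receptor RPN10, had 131, 133 and 128 CPM in mod and 190, 176 and 209 CPM in Nvs. All Nvs libraries were above all mod libraries, and PSMD4 rose by 0.55 ± 0.06 on the log2 scale (edgeR adjusted p = 8.42e-06). PSMD2, which encodes the scaffold RPN1, had the highest CPM of all members in mod, with 312, 290 and 296 CPM, against 258, 278 and 276 CPM in Nvs. The groups did not overlap, and PSMD2 fell by 0.15 ± 0.05 (log2 fold change -0.15, edgeR adjusted p = 0.0392). That call was lost without mod1 (adjusted p = 0.115), mod3 (0.0618) or Nvs1 (0.152). The other large scaffold of the base, RPN2 encoded by PSMD1, was not called at -0.11 ± 0.07 (edgeR adjusted p = 0.219).

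In the lid 2 of 8 genes rose and 1 fell, near the 22.8% and 20.5% of all genes tested. The median log2 fold change of the lid was 0.00, close to that of all genes. PSMD8, a lid subunit gene on chromosome 19 from 38374536 to 38383824, had 68.7, 68.0 and 67.6 CPM in mod and 94.5, 96.0 and 108 CPM in Nvs, with no overlap (0.55 ± 0.06, edgeR adjusted p = 9.37e-06). PSMD7, which encodes the partner of the deubiquitinase in the lid, had 32.5, 32.8 and 29.7 CPM against 43.8, 42.2 and 43.4 CPM, also without overlap (0.45 ± 0.07, edgeR adjusted p = 0.000218). PSMD12, the gene of the lid subunit RPN5, fell. It had 41.2, 42.0 and 39.4 CPM in mod and 35.8, 32.1 and 31.5 CPM in Nvs, so its highest Nvs library was below its lowest mod library (-0.30 ± 0.08, edgeR adjusted p = 0.00567). PSMD14, the deubiquitinase of the lid, was not called at -0.17 ± 0.07 (edgeR adjusted p = 0.0704), and PSMD3, PSMD6, PSMD11 and PSMD13 had values from -0.05 to 0.12 and no call.

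Among activators and the inhibitor 2 of 5 genes were called, both higher. PSMF1, which encodes the proteasome inhibitor PI31, had 74.0, 73.3 and 75.7 CPM in mod and 95.1, 90.6 and 97.1 CPM in Nvs, with no overlap (0.34 ± 0.05, edgeR adjusted p = 0.000188). The nuclear activator gene PSME3 and PSME4, which encodes PA200, were not called at 0.04 and -0.10 (edgeR adjusted p = 0.656 and 0.292).

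The partner genes PSME1 and PSME2, whose proteins form the interferon-inducible activator ring, were uneven within groups. PSME1 had 3799, 7066 and 6093 reads in mod1 to mod3, and 4926, 64 and 4299 reads in Nvs1 to Nvs3. The Nvs2 library thus stood at 2.02 CPM, while the other libraries ranged from 57.0 to 144 CPM. With all libraries PSME1 was not called (0.03 ± 0.71, edgeR adjusted p = 0.975), and without Nvs2 its log2 fold change was 0.61 with an edgeR adjusted p of 0.0212. PSME2 had 124, 78.5 and 95.1 CPM in mod and 115, 128 and 171 CPM in Nvs, with overlapping groups (0.48 ± 0.15, edgeR adjusted p = 0.0213). Its call was lost without mod2 (adjusted p = 0.106), mod3 (0.0600) or Nvs3 (0.118), and DESeq2 did not call it (0.134). PSME1 lies on chromosome 14 from 24136158 to 24138967 and PSME2 from 24143362 to 24147570. Some neighbours within 50000 bases were uneven as well: PCK2 had 699, 670 and 39 reads in mod1 to mod3, DCAF11 had 632, 57 and 487, and EMC9 had 201, 15 and 13. In Nvs1 to Nvs3 PCK2 had 12, 27 and 17 reads, DCAF11 had 244, 171 and 11, and EMC9 had 21, 2 and 12. Other neighbours with few reads varied less in mod, such as RNF31 (9, 8 and 6) and IRF9 (16, 22 and 14). The source of this unevenness was not tested, and the rise of PSME2 and the value of PSME1 are uncertain.

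**Figure D3:**
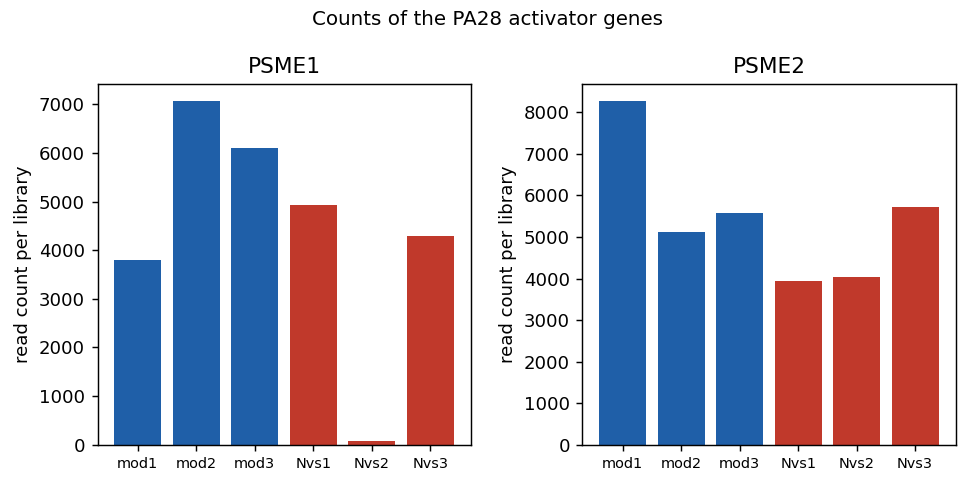
Bars give the deposited read counts of PSME1 and PSME2 in each of the 6 libraries, on linear axes that start at 0. PSME1 has 64 reads in Nvs2 against 3799 to 7066 in the other libraries, whereas PSME2 has 4047 reads in the same library.

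The assembly chaperones held the member with the largest fold change. PSMG4, which acts with PSMG3 as a chaperone of the alpha ring, had 12.6, 13.2 and 14.3 CPM in mod and 24.3, 21.8 and 26.4 CPM in Nvs. Every Nvs library exceeded every mod library by a wide margin, and the log2 fold change was 0.86 ± 0.11 (edgeR adjusted p = 2.35e-05), or 0.10 by library total. PSMG4 spans 72.0 kb in GENCODE but 13.6 kb in RefSeq, and TUBB2B and SLC22A23 overlap its GENCODE span on the opposite strand. Whether reads of those genes entered its count was not tested. PSMG3 rose by 0.33 ± 0.08 (edgeR adjusted p = 0.00297). PSMG1, of the other chaperone pair of the alpha ring, rose from 19.0, 17.1 and 18.5 CPM to 24.3, 20.7 and 23.1 CPM without overlap (0.32 ± 0.10, edgeR adjusted p = 0.0195). Without mod2, mod3 or Nvs1 the adjusted p of PSMG1 was 0.0961, 0.0600 and 0.0664. Its partner PSMG2 (0.27, edgeR adjusted p = 0.0630) was not called, nor were the base chaperones PSMD9 (0.38, 0.0551), PSMD10 (0.12, 0.223) and PSMD5 (-0.01, 0.938). In all, 3 of 7 chaperone genes rose and 0 fell, with a median of 0.32.

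The makeup of the summed proteasome signal within each library, which no scaling of libraries can alter, shifted towards the core. PSME1 and PSME2 were left out of this sum for their uneven counts, a choice made after the values were seen. The alpha genes took 15.2% ± 0.108 of the summed FPKM of the other 44 members in mod and 16.6% ± 0.189 in Nvs (SD, n = 3), and the constitutive beta genes 38.0% ± 0.636 and 40.1% ± 0.166. The share of PSMB10 with the 2 unlisted inducible genes was 1.63% ± 0.121 in mod and 2.00% ± 0.0724 in Nvs. The lid genes went from 14.3% ± 0.129 to 12.5% ± 0.244 and the non-ATPase base genes from 12.3% ± 0.181 to 11.2% ± 0.242. PSMF1, PSME3 and PSME4 together went from 3.37% ± 0.0948 to 2.88% ± 0.0528. The libraries of the groups did not overlap for any of these 6 shares. They did for the base ATPases (8.84% ± 0.240 and 8.68% ± 0.0549) and the chaperones (6.30% ± 0.209 and 5.96% ± 0.260). With all 46 members in the sum the alpha, beta and lid shares went from 14.0%, 34.9% and 13.1% to 15.4%, 37.2% and 11.6%. In that sum the activator share overlapped (11.2% ± 1.06 and 10.1% ± 3.32) and the chaperone share did not (5.79% ± 0.152 and 5.52% ± 0.179). No test was run on the shares, and shares of a sum cannot move independently of each other. The shares are not freed from the trend with gene length described below, and they were not recomputed with that trend removed. Whether the shift followed gene length was not tested.

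**Figure D4:**
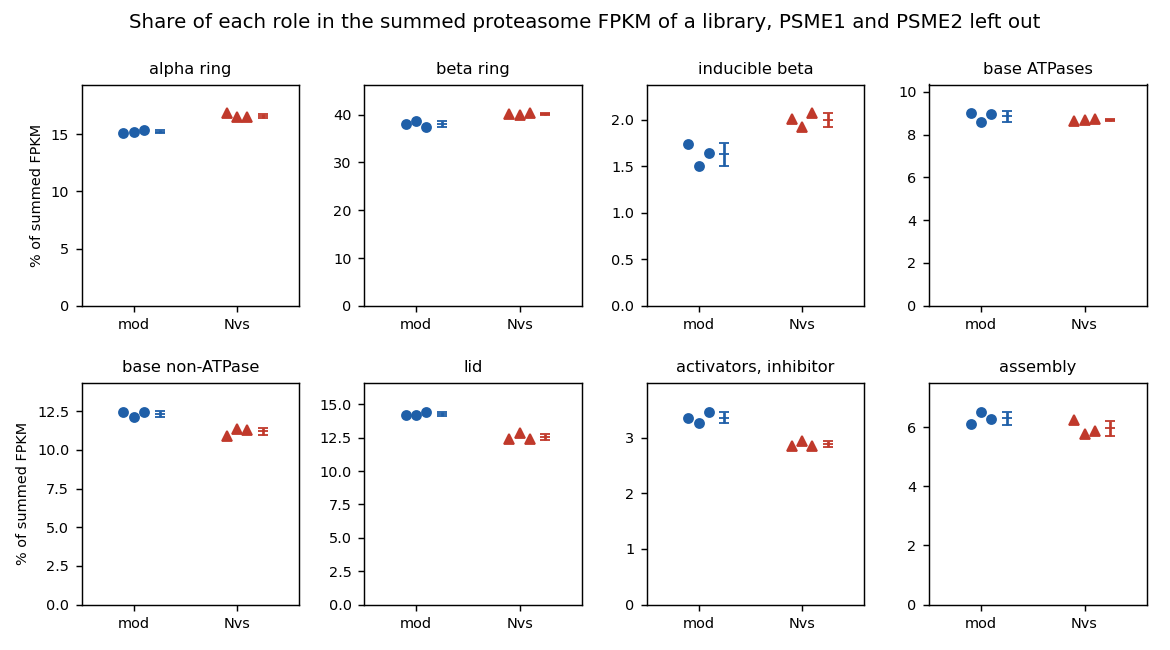
Each panel gives the share of the summed proteasome FPKM of a library that one role takes, with a point per library and the mean ± SD of 3 libraries beside it, PSME1 and PSME2 left out. The alpha and beta rings take a larger share in Nvs than in mod (16.6% against 15.2% and 40.1% against 38.0%), and the lid a smaller one (12.5% against 14.3%).

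Fold change followed the genomic span of the members, as it did over all genes. Over the 42 tested members Spearman's rho between log2 fold change and span was -0.507 and Pearson's r with log10 span -0.463. Over 12337 tested protein-coding genes they were -0.403 and -0.36. These are descriptions across genes of the same libraries, which are not independent replicates. The 5 members that span under 3 kb, PSMB10 among them, had a median of 0.33, against 0.58 for all 512 protein-coding genes of that size. The 10 members of 3 to 10 kb had a median of 0.40, against 0.26 for 2017 genes. At 10 to 30 kb the values were 0.12 for 17 members and 0.09 for 3620 genes, at 30 to 100 kb 0.12 for 6 members and -0.12 for 3987 genes, and above 100 kb -0.10 for 4 members and -0.32 for 2201 genes. With the length trend taken out of the fit, edgeR called 13 members higher and 3 lower, against 20.0% and 18.2% of all genes. The higher set shared 11 genes with the 20 above: PSMG4, PSMB5, PSMB6, PSMB7, PSMA5, PSMA7, PSMC1, PSMD4, PSMD7, PSMD8 and PSMF1. The 3 falls of PSMB2, PSMD2 and PSMD12 were called in both. PSMB10 was then at 0.15 (edgeR adjusted p = 0.233), and PSMB4 at -0.13.

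**Figure D5:**
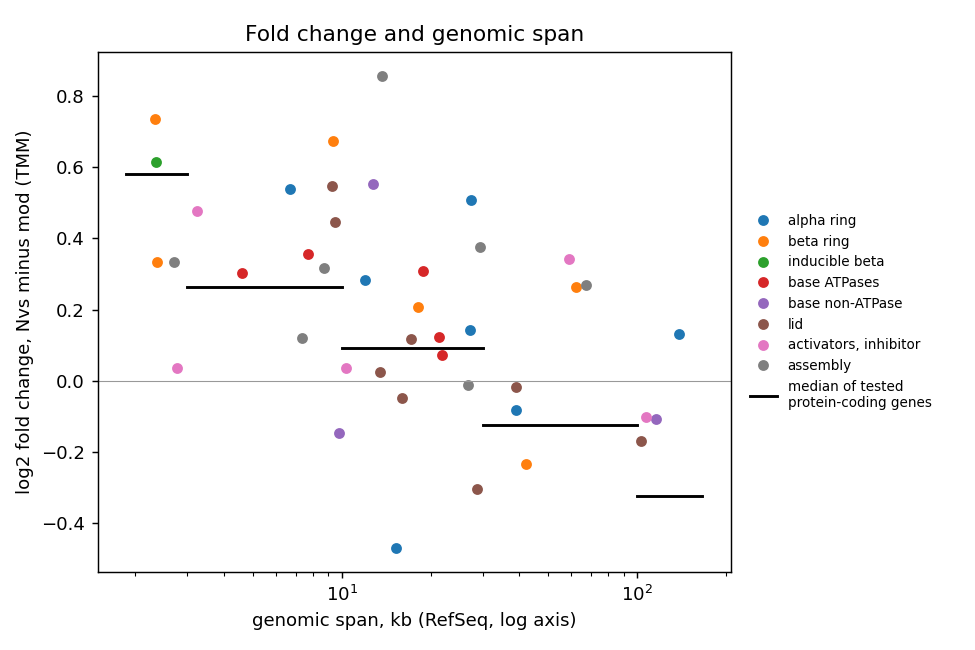
Each point is a tested proteasome gene, with its genomic span in kb on a log axis and its log2 fold change (Nvs minus mod) on the other axis, and black lines give the median of all tested protein-coding genes in each span bin. The medians of all genes step down from 0.58 under 3 kb to -0.32 above 100 kb.

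The upstream sequence of the members was read from RefSeq (GRCh38.p14) as the 250 bases before each start, which gave 49 windows for 40 of the members. They were searched on both strands for the letters of response elements tied to proteasome genes. The letters GAAA and GAAA with any 2 bases between them, a form of the interferon-stimulated response element, were found in 5 of 49 windows (10.2%), of 5 genes, and in 2.71% of 22198 windows of protein-coding genes. These genes, PSMG4, PSMB10, PSME2, PSMB4 and PSMA4, were all called higher (20 of the 42 tested members were), with a median log2 fold change of 0.48. Of the 31 tested members whose windows lacked it, 9 were called higher and 3 lower, with a median of 0.12. PSMA7, PSMB1, PSMB6, PSMB7, PSMD4 and PSMG3 had no window and were all called higher. They are in neither set, here or for the motifs below. The matches with up to 15 bases before and 9 bases after are shown because 3 of them have the same letters in the same region just before the start. Capitals mark the match, and each line reads 5′ to 3′ on the strand of the gene.
PSMG4 (chr6:3258899-3258932, plus strand): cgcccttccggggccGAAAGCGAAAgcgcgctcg
PSMB10 (chr16:67936853-67936886, minus strand): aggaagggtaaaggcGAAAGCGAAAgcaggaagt
PSME2 (chr14:24146620-24146653, minus strand): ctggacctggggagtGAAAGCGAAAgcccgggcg
PSMB4 (chr1:151399490-151399523, plus strand): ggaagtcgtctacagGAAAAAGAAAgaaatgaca
PSMA4 (chr15:78540155-78540183, plus strand): atagtgaagaGAAAATGAAAggagagcgc

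The letters GAAAGCGAAA of PSMG4, PSMB10 and PSME2 begin 33, 21 and 28 bases before the RefSeq start. They occur in 3 member windows (6.12%) and in 22 of the 22198 protein-coding windows (0.099%), a search made after the matches had been seen. The matches of PSMB4 and PSMA4 begin 68 and 240 bases before the start. A match is a description of letters and not a bound site. The call of PSME2 rests on single libraries, and PSMB10, PSMB4, PSMA4 and PSME2 were not called once the length trend was removed, when PSMG4 was.

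The antioxidant response element core TGACNNNGC, a form of the sequence bound by NFE2L1 and NFE2L2, was in 13 of 49 windows (26.5%), against 11.2% of all protein-coding windows. Members with it were called in both directions. Of 11 tested genes with a match 4 were called higher and 1 lower (median 0.27), and of 25 without one 10 were higher and 2 lower (median 0.12). Among those with the motif were PSMA4, PSMC5, PSME2 and PSMG1, which were called higher, and PSMD12, which fell. The looser form TGANNNNGC was in 27 windows (55.1%, against 35.2% of the windows of all RefSeq genes). Of 19 tested genes with it 9 were called higher and 1 lower (median 0.28), and of 17 without it 5 and 2 (median 0.07). The ETS-type motif CCGGAAG was in 10 windows (20.4%, against 10.7%), CCAAT in 18 (36.7%, against 32.7%), and the gamma-activated site TTCNNNGAA in 6 (12.2%, against 5.92%). Of 16 tested genes with CCAAT 8 were called higher and 0 lower, and of 20 without it 6 and 3. No difference between genes with and without a motif was tested. GC content had a median of 62.0% both in the member windows and in the windows of all protein-coding genes. Windows of the strongest rise and fall among called members are shown whole, chosen after their values were seen, with capitals on matches to any of these motifs.
PSMG4 (chr6:3258697-3258946, plus strand): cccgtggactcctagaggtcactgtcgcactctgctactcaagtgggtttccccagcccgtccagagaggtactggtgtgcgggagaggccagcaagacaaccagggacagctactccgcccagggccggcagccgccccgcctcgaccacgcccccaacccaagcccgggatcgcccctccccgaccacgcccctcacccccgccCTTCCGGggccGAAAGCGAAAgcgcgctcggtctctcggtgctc
PSMD12 (chr17:67366578-67366827, minus strand): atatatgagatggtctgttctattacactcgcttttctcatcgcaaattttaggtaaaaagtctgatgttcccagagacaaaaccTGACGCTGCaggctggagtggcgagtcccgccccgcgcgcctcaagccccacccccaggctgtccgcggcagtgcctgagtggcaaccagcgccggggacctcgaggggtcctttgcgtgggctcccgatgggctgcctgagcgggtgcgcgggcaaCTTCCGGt

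PSMG4 has CCGGAAG on the minus strand 44 to 38 bases before its start, next to GAAAGCGAAA, and no antioxidant element. PSMD12 has TGACNNNGC 165 to 157 bases before its start and CCGGAAG on the minus strand right before it.

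Genes that work with the proteasome but carry other symbols moved in both directions. Of 14 proteasome-associated genes 6 rose and 2 fell (median 0.13). For this list and those that follow, the shares of all genes tested were 22.8% higher and 20.5% lower. The 2 with the smallest adjusted p among the rises are subunits of the regulatory particle: SEM1, of the lid, rose from 35.6 to 68.5 CPM in the mean (log2 fold change 0.94 ± 0.07, edgeR adjusted p = 3.08e-07), and ADRM1, the ubiquitin receptor RPN13, from 59.3 to 90.4 CPM (0.61 ± 0.06, edgeR adjusted p = 3.06e-06). IPO9, an importin that carries proteasomes, and UBE3C, a ligase of the complex, fell by 0.45 ± 0.05 and 0.37 ± 0.07 on the log2 scale (edgeR adjusted p = 1.76e-05 and 0.000538).

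The pathway of NFE2L1, the transcription factor that raises proteasome genes when the proteasome is inhibited, was split, with 4 of 10 genes higher and 4 lower (median 0.05). NFE2L1 itself went from 284 to 229 CPM (-0.31 ± 0.05, edgeR adjusted p = 0.000176). Of its small Maf partners, MAFF and MAFK rose by 1.40 ± 0.09 and 0.67 ± 0.08 (edgeR adjusted p = 4.59e-08 and 1.14e-05). MAFG was not called at -0.11 ± 0.07 (edgeR adjusted p = 0.228). VCP, the segregase that pulls NFE2L1 out of the endoplasmic reticulum membrane, fell by 0.60 ± 0.05, and SEL1L, of the ligase complex of that membrane, by 0.82 ± 0.11 (edgeR adjusted p = 6.82e-07 and 5.25e-05).

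Of 12 genes of ubiquitin, its activating enzymes and shuttle receptors 6 rose and 1 fell (median 0.26). RPS27A, a fusion of ubiquitin with a ribosomal protein, rose by 1.12 ± 0.06, and the activating enzyme UBA1 fell by 0.17 ± 0.05 (edgeR adjusted p = 1.76e-08 and 0.0196). Genes that load peptides on MHC class I were mostly lower, with 6 of 10 tested genes falling and 1 rising (median -0.31). CALR and PDIA3, chaperones of peptide loading, fell by 0.96 ± 0.05 and 0.70 ± 0.06, while the trimming peptidase ERAP2 rose by 0.27 ± 0.07 (edgeR adjusted p = 1.07e-08, 6.82e-07 and 0.00543). TAP1 and TAP2 were not tested.

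Near-identical copies and overlapping genes limit what can be read from some members. Pseudogenes of 9 members have 18 rows of their own in the table, with 1765 reads in all. PSME2 has 4 such rows with 726 reads beside its own 32669, and the pseudogenes of PSMA6 have 353 reads beside its own 1818. A coding gene overlaps 16 members on the opposite strand, PSMG4 among them, and the strand setting of the counting is not given in the sources used here.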

How the data were processed

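RNA of 6 HaCaT libraries was sequenced as 150 bp paired ends after TRIzol extraction, poly(A) selection and dUTP strand marking, per the labels' protocols. Gene counts and FPKM values, 1 table each, were deposited by the authors. FPKM is normalised for transcript length and library total. The build is hg38, per the submitters' processing notes; the sources used here do not name the aligner, the counter or the strand setting.

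Groups follow the titles. Counts were fitted in edgeR 4.0.16 (R 4.3.3) with filterByExpr (minimum count 10, total 15), TMM and the quasi-likelihood test over 14617 genes, with Benjamini-Hochberg adjustment and calls at an adjusted p under 0.05. SE was derived from the fold change and its F statistic. CPM values are TMM-scaled. DESeq2 1.42.0, limma 3.58.1, other scalings, filters, gene length and left-out libraries were alternatives. The fit was tested on simulated data. Depth was 41120058 to 51369628 counts per library.

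Members and lists were chosen with earlier results of these data known. Up to 4 members of each role group were to be given in full: those of smallest adjusted p in each direction, inducible subunits and members opposite to most of their group. From other lists, up to 2 genes in each direction were named, and 1 such gene is not reported here. PSME1, PSME2, MAFG and the genes shown for lost calls, overlaps or promoter letters were named after their values were seen. Coordinates are those of GENCODE release 29 (GRCh38), spans and promoters those of RefSeq.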

Additional observations from a re-analysis of the deposited data

How the results depend on the processing

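The counts and medians moved with the scaling and with gene length. Scaled by library total, 0 members were called higher and 36 lower (591 and 9937 of all genes), with a member median of -0.53 on the log2 scale. Scaled by the total of genes outside the mitochondrial genome, 10 members were higher and 10 lower (2128 and 5044 of all genes), with a median of 0.027, while the median of all genes stood at -0.22. With the length trend removed 13 members were called higher (median 0.12; 2923 of all genes higher and 2660 lower); a block for the replicate number on top of that left 12 (median 0.11; 2699 and 2481). The causes were not tested. Without a library in turn, members called higher ranged from 17 to 22, those lower from 2 to 3, all genes higher from 2745 to 3317 and lower from 2414 to 3075, and the member median from 0.17 to 0.29. DESeq2, no filter, a minimum count of 50 and limma on log2 FPKM (pseudocounts 0.1 and 1) gave 18 to 22 higher and 3 lower. Of all genes, 3237 to 3462 were higher and 2641 to 3377 lower under these settings, with 12013 to 21961 tested.

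The replicate number as a block gave 19 members higher and 2 lower (3115 and 2835 of all genes), with the calls of PSMB1 and PSMD2 lost. Same-numbered libraries did not deviate together (correlations of -0.018, -0.0077 and -0.023). A small shared effect could go unseen in such correlations, so they do not settle whether samples were prepared in pairs. The ratios of PSMB8 to PSMB5 and of PSMB9 to PSMB6 gave a value only from counts with 1 read added (0.27 and -0.85), where that of PSMB10 to PSMB7 was 0.35.

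Log2 fold changes of single members changed sign under some settings. By library total 30 members did: PSMA1 -0.63, PSMA3 -0.62, PSMA4 -0.48, PSMA5 -0.25, PSMA7 -0.22, PSMB1 -0.55, PSMB10 -0.15, PSMB4 -0.43, PSMB5 -0.087, PSMB6 -0.025, PSMB7 -0.50, PSMC1 -0.45, PSMC2 -0.69, PSMC3 -0.40, PSMC5 -0.46, PSMC6 -0.64, PSMD10 -0.64, PSMD3 -0.64, PSMD4 -0.21, PSMD6 -0.73, PSMD7 -0.31, PSMD8 -0.21, PSMD9 -0.38, PSME1 -0.73, PSME2 -0.28, PSME3 -0.72, PSMF1 -0.42, PSMG1 -0.44, PSMG2 -0.49 and PSMG3 -0.43. By the total outside the mitochondrial genome 10 did: PSMA1 -0.077, PSMA3 -0.064, PSMB1 -0.0009, PSMC2 -0.13, PSMC6 -0.083, PSMD10 -0.084, PSMD3 -0.090, PSMD6 -0.18, PSME1 -0.18 and PSME3 -0.17. With the length trend removed 11 did: PSMB4 -0.13, PSMC5 -0.020, PSMD1 0.14, PSMD10 -0.11, PSMD11 0.049, PSMD14 0.063, PSMD6 -0.12, PSME1 -0.39, PSME3 -0.15, PSME4 0.14 and PSMG3 -0.10. With the block added the same 11 had PSMB4 -0.13, PSMC5 -0.021, PSMD1 0.14, PSMD10 -0.11, PSMD11 0.049, PSMD14 0.063, PSMD6 -0.12, PSME1 -0.96, PSME3 -0.15, PSME4 0.13 and PSMG3 -0.10. PSME1 also turned with limma (-1.32 and -1.08 for the pseudocounts 0.1 and 1) and with the block (-0.53). Without a library in turn PSME1 ranged from -0.45 to 0.61, PSMA6 from -0.21 to 0.11, PSMD5 from -0.063 to 0.079 and PSME3 from -0.0001 to 0.073.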
